A study of Mus musculus with 21 samples.

Results

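The CELF and ELAVL genes encode 2 families of RNA-binding proteins, and their mRNAs were measured in spiral ganglion neurons (SGNs), the neurons that carry sound information from the cochlea to the brain. The genes were chosen by name, as all 6 CELF genes (*Celf1* to *Celf6*) and all 4 ELAVL genes (*Elavl1* to *Elavl4*), which makes 10 of the 52550 genes in the table of counts. RNA-Seq was done on 21 libraries of mouse inner ear cells in 7 groups of 3 replicates. SGNs were taken at 5 ages (E15.5, P1, P8, P14, P30), glial cells at P8 and hair cells (HCs) at P12, all from mice on a C57BL/6 background that carried the Ai9 (*Rosa26-CAG-loxp-stop-loxp-tdTomato*) reporter. SGNs were tdTomato+ cells of *Shh Cre/+* mice, which carried no inducible Cre and received no tamoxifen. HCs came from *Atoh1-CreER+* mice and held both cochlear and vestibular cells, and glial cells came from the SGN region of *vGlut3-iCreER/+* mice. Tamoxifen was given to both of these strains shortly after birth. The labels name manual picking for HCs, whereas the methods name flow sorting.

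CELF proteins bind GU-rich elements in RNA and act in alternative splicing, deadenylation and mRNA decay. ELAVL proteins, also called Hu proteins, bind AU-rich and U-rich elements and mostly stabilize mRNAs or favor their translation. *Elavl1* (HuR) is expressed in nearly all cell types, whereas *Elavl2* (HuB), *Elavl3* (HuC) and *Elavl4* (HuD) are known as neuronal genes. *Celf1* and *Celf2* are known as broadly expressed genes, and *Celf3* to *Celf6* as genes of the nervous system.

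Total counts on genes lay between 10368240 and 37287489 per library (median 20384100). The lists of SGN, HC and glial markers followed the labels. Summed CPM of 7 SGN markers was 4054 to 10313 in SGN libraries, 564 to 595 in HC libraries and 99.0 to 860.4 in glial libraries. Glial replicate 1 held the 860.4 CPM, against 225 and 99.0 in glial replicates 2 and 3, and values without that library are given below for the neuronal members. Connective tissue markers summed to 2235 to 3605 CPM in glial libraries, 0.837 to 621 in SGN libraries and 254 to 299 in HC libraries. Proliferation markers summed to 255 to 1336, 0.877 to 157 and 1.40 to 6.96 CPM in the same order. Their part in the glial levels of the members was not tested. The study kept samples by qPCR of cell type markers, so the levels of such markers are a condition of the samples and not a result. Nothing in the labels says that replicates came from separate litters, and the p-values measure the spread between these samples. In bulk samples, fewer cells of a type and less RNA per cell cannot be told apart.

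In the GRCm38 annotation, *Celf1* lies at chr2:90940382-91019497, *Celf2* at chr2:6539694-7509563, *Celf3* at chr3:94478295-94492198, *Celf5* at chr10:81459227-81482709 and *Celf6* at chr9:59577917-59607292. *Elavl1* lies at chr8:4285382-4325413, *Elavl2* at chr4:91250763-91400785, *Elavl3* at chr9:22015005-22052023 and *Elavl4* at chr4:110203722-110351909. All 10 are protein-coding genes, and counts were summed over all exons of a gene. Exons of 5 members overlap those of another gene: *Celf2* with *Gm26565* over 1961 bases, *Celf5* with *Gm16105* over 543 bases, *Elavl3* with *Gm49318* over 256 bases, *Elavl1* with *Ccl25* over 204 bases and *Celf3* with *Riiad1* over 74 bases. Reads in these stretches are of uncertain origin, since the strand setting of the counting is not given in the sources used here.

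The promoters of 4 members are shown because they stand for the patterns described below: *Celf3*, *Celf5* and *Elavl3* fell with age, and *Elavl4* showed no change that passed the test. RefSeq promoter sequences of GRCm38.p6 were available for 9 members. Each line holds the 250 bases before the start site on the gene's strand, and capitals mark matches to CANNTG, the E-box core bound by basic helix-loop-helix factors. The windows are chr3:94478045-94478294 (+), chr10:81482700-81482949 (-), chr9:22052024-22052273 (-) and chr4:110351912-110352161 (-).
Celf3: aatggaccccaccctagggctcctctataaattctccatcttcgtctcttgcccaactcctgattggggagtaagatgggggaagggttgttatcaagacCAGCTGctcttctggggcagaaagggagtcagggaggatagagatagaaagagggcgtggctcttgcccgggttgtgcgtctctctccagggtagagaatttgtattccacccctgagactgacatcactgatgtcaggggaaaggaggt
Celf5: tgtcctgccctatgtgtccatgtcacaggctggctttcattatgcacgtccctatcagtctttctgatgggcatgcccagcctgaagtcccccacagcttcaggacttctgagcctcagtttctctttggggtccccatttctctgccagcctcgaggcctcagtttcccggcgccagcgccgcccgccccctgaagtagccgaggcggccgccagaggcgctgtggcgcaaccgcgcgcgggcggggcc
Elavl3: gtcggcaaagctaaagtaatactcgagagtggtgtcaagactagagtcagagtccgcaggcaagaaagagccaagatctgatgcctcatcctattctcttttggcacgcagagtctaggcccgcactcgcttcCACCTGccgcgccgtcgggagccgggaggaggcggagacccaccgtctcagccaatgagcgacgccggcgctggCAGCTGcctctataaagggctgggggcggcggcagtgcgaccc
Elavl4: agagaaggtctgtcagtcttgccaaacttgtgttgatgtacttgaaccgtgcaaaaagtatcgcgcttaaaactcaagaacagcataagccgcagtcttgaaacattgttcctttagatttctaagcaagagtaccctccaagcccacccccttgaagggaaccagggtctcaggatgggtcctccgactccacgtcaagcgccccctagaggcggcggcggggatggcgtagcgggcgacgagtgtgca

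CANNTG occurred 1 time before *Celf3*, 2 times before *Elavl3* and 0 times before *Celf5* and *Elavl4*, and 66.1% of 27025 promoter windows of the same length hold at least 1 match. All 4 motifs were searched on both strands. GGGCGG, the GC-box core, occurred 3 times before *Celf5*, 1 time before *Elavl3* and 0 times before *Celf3* and *Elavl4* (33.0% of all windows hold it). TATAAA, the TATA box, occurred 1 time each before *Celf3* and *Elavl3* (12.98% of windows), and CCAAT, the CCAAT box, also 1 time each before *Celf3* and *Elavl3* (34.5% of windows). Matches to different motifs did not overlap in these windows. The G+C content was 52.8% before *Celf3*, 53.6% before *Elavl4*, 61.6% before *Elavl3* and 64.4% before *Celf5*, against a median of 52.0% over all windows. These matches describe letters in the windows and are not shown to be bound.

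The first question was how the members change in SGNs as the cells mature. Between E15.5 and P30, *Celf1*, *Celf2*, *Celf3*, *Celf5* and *Elavl3* fell and *Celf4* rose, and the other 4 members did not pass the test. A gene was called between ages when it changed over 2-fold with a Benjamini-Hochberg (BH) adjusted p under 0.05 in limma-voom, fitted on the 15 SGN libraries and 15113 genes. By this rule 6 of 10 members were called from E15.5 to P30, where 34.6% of all genes tested were called (18.4% rising and 16.2% falling). The median log2 fold change was -0.82 for the members and -0.01 for all genes tested. In the moderated F test over the 5 ages, which has no fold threshold, the same 6 members passed, against 37.8% of all genes. Within the families, 5 of 6 CELF genes and 1 of 4 ELAVL genes were called from E15.5 to P30.

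Values per library are given as CPM scaled by edgeR's TMM factors (TMM-CPM), in the order of replicates 1 to 3. *Celf3*, a splicing regulator of neurons, had 293, 229.5 and 266 TMM-CPM at E15.5 and 107, 92.2 and 89.7 at P1. It had 16.1, 22.8 and 23.0 at P8, 4.41, 8.12 and 6.90 at P14, and 17.0, 6.53 and 6.30 at P30. The ages E15.5, P1, P8 and P14 did not overlap with each other, each lying lower than the one before, and P30 replicate 1 lay within the range of P8. From E15.5 to P30 *Celf3* fell 27.4-fold (log2 fold change -4.78 ± 0.35 SE, limma-voom adjusted p = 4.21e-08). Without P30 replicate 1 the log2 fold change was -5.38.

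*Celf5*, another CELF gene of the nervous system, had 94.8, 119 and 91.0 TMM-CPM at E15.5, 34.2, 19.7 and 38.3 at P1, and 5.91, 7.67 and 5.38 at P8. It had 3.08, 3.26 and 0 TMM-CPM at P14 and 4.89, 4.61 and 4.25 at P30. No 2 ages overlapped, with the order E15.5, P1, P8, P30 and P14 from high to low. The value of 0 is a count of 0 in P14 replicate 3. The limit that this allows, at 3 counts, is 0.155 CPM before TMM scaling, for counting error only. Even numbers made up 73.5% of the counts from 1 to 20 in that library, so the limit may be too low. The fall from E15.5 to P30 was 22.4-fold (log2 fold change -4.49 ± 0.60 SE, limma-voom adjusted p = 2.32e-05).

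*Celf4* (chr18:25477632-25754157), which is known to regulate neuronal excitability and synaptic mRNAs, moved the other way. It had 164, 97.9 and 127 TMM-CPM at E15.5, 146, 149 and 207 at P1, and 353, 284 and 278 at P8. At P14 it had 347, 173 and 663 TMM-CPM, and at P30 687, 495 and 846. All P8 and P30 libraries lay above all E15.5 and P1 libraries, whereas the P14 libraries spread from within the range of P1 to within the range of P30. *Celf4* rose 5.16-fold from E15.5 to P30 (log2 fold change 2.37 ± 0.36 SE, limma-voom adjusted p = 9.12e-05), and it was called neither at any step between neighboring ages nor under the other tools run at those steps. The study named *Celf4* as a gene of dynamic and *Elavl4* as a gene of constant expression from these same libraries. It also chose both as SGN-specific against HCs and glial cells from them. Neither their courses with age nor their contrasts with HCs and glial cells, given below, are therefore independent evidence. Apart from the libraries, the study reported a rise of *Celf4* with age by qPCR and its expression in SGNs of knockin mice. It also reported both genes in the SGN region by in situ hybridization. Those assays were not examined here.

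*Celf1*, which promotes decay of GU-rich mRNAs, had 126, 106 and 131 TMM-CPM at E15.5, 73.0, 71.7 and 79.0 at P1, and between 34.6 and 51.0 in the 9 libraries of P8, P14 and P30. The 3 later ages overlapped with each other and lay below P1, which lay below E15.5. It fell 3.25-fold from E15.5 to P30 (log2 fold change -1.70 ± 0.20 SE, limma-voom adjusted p = 5.44e-06). *Celf2*, a splicing regulator of brain, heart and T cells, had 98.7, 98.3 and 107 TMM-CPM at E15.5 and 25.4, 23.8 and 28.6 at P30. These ages did not overlap, and the fall was 4.03-fold (log2 fold change -2.01 ± 0.27 SE, limma-voom adjusted p = 2.04e-05). *Celf6* was the lowest member, with 0.123 to 9.10 TMM-CPM over the 15 SGN libraries and as few as 2 counts in a library. Its log2 fold change from E15.5 to P30 was -0.38 (95% interval -2.23 to 1.48, limma-voom adjusted p = 0.755), turned to 0.48 without E15.5 replicate 2, and leaves a change of several-fold in either direction undetected at this depth.

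Among the ELAVL genes, *Elavl3*, which is needed for the function of mature neurons, had 331, 384 and 438 TMM-CPM at E15.5, 359, 280.4 and 241 at P1, and 209, 137 and 154 at P8. It had 116, 161 and 101 TMM-CPM at P14 and 207, 156 and 170.2 at P30. The libraries of E15.5 and P1 overlapped, and all of them lay above those of the 3 later ages. It fell 2.21-fold from E15.5 to P30 (log2 fold change -1.15 ± 0.21 SE, limma-voom adjusted p = 3.69e-04), and the change from P8 to P30 was 0.08 on the log2 scale (adjusted p = 0.898).

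*Elavl4*, which stabilizes mRNAs of growing neurites, had 645, 503 and 448 TMM-CPM at E15.5 and 457, 460.3 and 477 at P30. Over the 15 SGN libraries it ranged from 375 to 645, and every age overlapped with every other. Its log2 fold change from E15.5 to P30 was -0.20 (95% interval -0.54 to 0.14, limma-voom adjusted p = 0.321). *Elavl2*, a regulator of neuronal splicing and differentiation, ranged from 138 to 311 TMM-CPM, with a log2 fold change of -0.11 (95% interval -0.52 to 0.30, limma-voom adjusted p = 0.679). *Elavl1*, the ubiquitous member, had 167, 113 and 112 TMM-CPM at E15.5 and 91.1, 93.4 and 92.8 at P30. The E15.5 libraries of *Elavl1* lay above those of every later age, but the fall of 1.41-fold was under the fold threshold (log2 fold change -0.49 ± 0.19 SE, limma-voom adjusted p = 0.0462), and the F test gave an adjusted p of 0.0702.

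**Figure D1:**
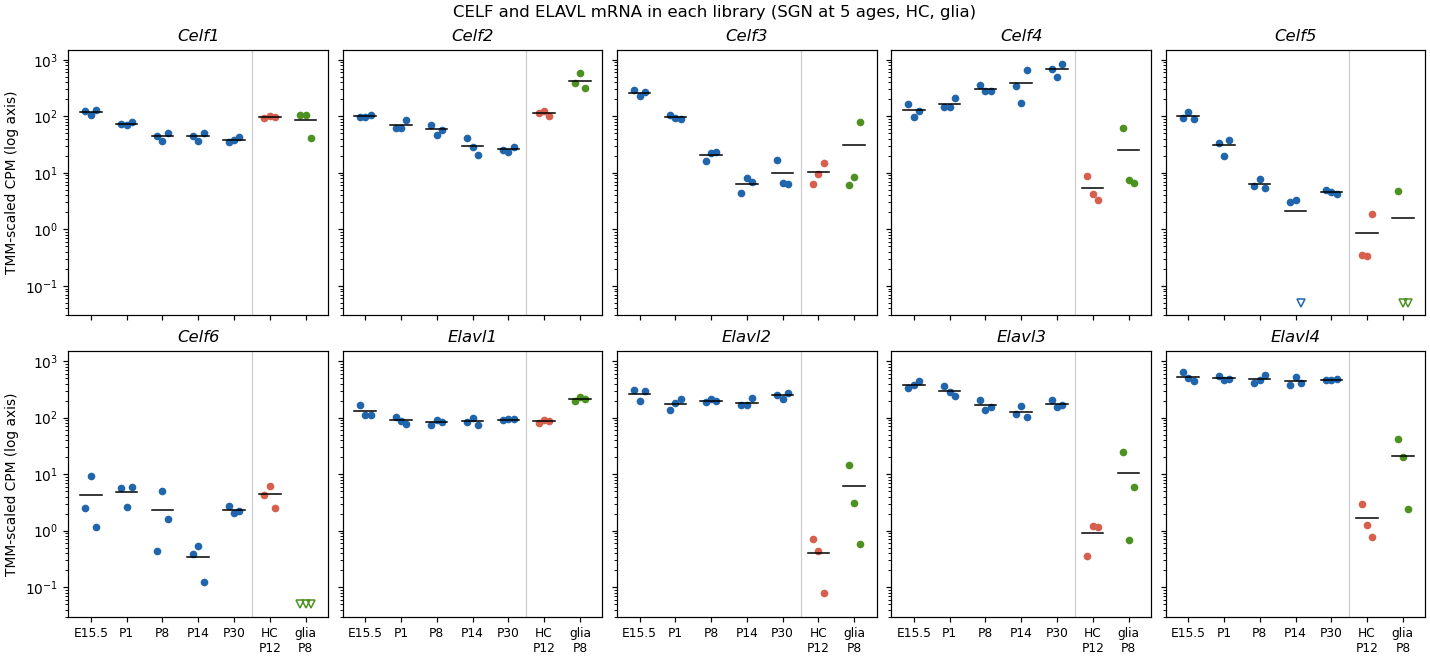
TMM-CPM (log axis) of the 10 members in each of the 21 libraries, by group, with blue points for SGNs, red for HCs and green for glial cells. Bars mark the mean of 3 libraries and open triangles at the bottom mark counts of 0. In SGNs *Celf3* falls from 229.5 to 293 at E15.5 to 6.30 to 17.0 at P30 while *Celf4* rises from 97.9 to 164 to 495 to 846, and *Elavl2*, *Elavl3* and *Elavl4* drop steeply in HCs and glial cells.

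The calls fell in the first steps. From E15.5 to P1, 2 of 10 members were called, both falling, against 8.26% of all genes: *Celf3* (log2 fold change -1.43 ± 0.18 SE, limma-voom adjusted p = 2.01e-04) and *Celf5* (-1.77 ± 0.32 SE, adjusted p = 0.00284). From P1 to P8 the same 2 members were called, against 7.44% of all genes, with log2 fold changes of -2.26 ± 0.25 (SE, limma-voom adjusted p = 3.55e-05) and -2.24 ± 0.52 (SE, adjusted p = 0.0104). In edgeR's quasi-likelihood test *Celf5* was not called at either step (adjusted p = 0.115 and 0.0648). *Celf1* fell by 0.69 and 0.77 on the log2 scale at these steps, with limma-voom adjusted p-values of 0.0161 and 0.0124, and *Elavl3* fell by 0.83 from P1 to P8 (adjusted p = 0.0124). These 3 changes were under 2-fold.

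From P8 to P14, 0 of 10 members were called in limma-voom, where 0.536% of all genes were called, and 3 members (*Celf2*, *Celf3* and *Celf5*) had an unadjusted p under 0.05. At this step edgeR called 0 members and DESeq2 called 1, *Celf3*, with a log2 fold change of -1.65 (DESeq2 adjusted p = 4.10e-04). The limma-voom value of *Celf3* was -1.70 (adjusted p = 0.0936). From P14 to P30, limma-voom, edgeR and DESeq2 each called 0 members, and 0.0596% of all genes were called in limma-voom. The 3 members with an unadjusted p under 0.05 at this step were *Celf4*, *Celf5* and *Celf6*. The share of all genes under this unadjusted threshold is not given here for either step, so both counts are descriptions only. *Celf2* had 71.2, 47.4 and 58.2 TMM-CPM at P8 and 41.5, 28.4 and 20.8 at P14. These libraries did not overlap, but the change did not pass the test (limma-voom adjusted p = 0.116). *Celf2* was highest in glial cells, and the glial markers were also higher at P8 (1516 to 2550 CPM) than at P14 (267 to 1127 CPM), whose part in this difference was not tested.

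Other measures also differed between these ages. Mitochondrial genes held 9.57% to 13.5% of counts at E15.5 and 17.9% to 22.1% at P30, the summed CPM of 3 proliferation markers was 31.8 to 88.0 at E15.5 and 1.44 to 4.72 at P30, and that of 6 glial markers was 177 to 381 and 26.4 to 396. In between, the summed CPM of glial markers was 114 to 351 in P1 libraries, 1516 to 2550 in P8 libraries and 267 to 1127 in P14 libraries, so it rose and fell with the steps to and from P8. Their part in the changes of the members was not tested.

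**Figure D2:**
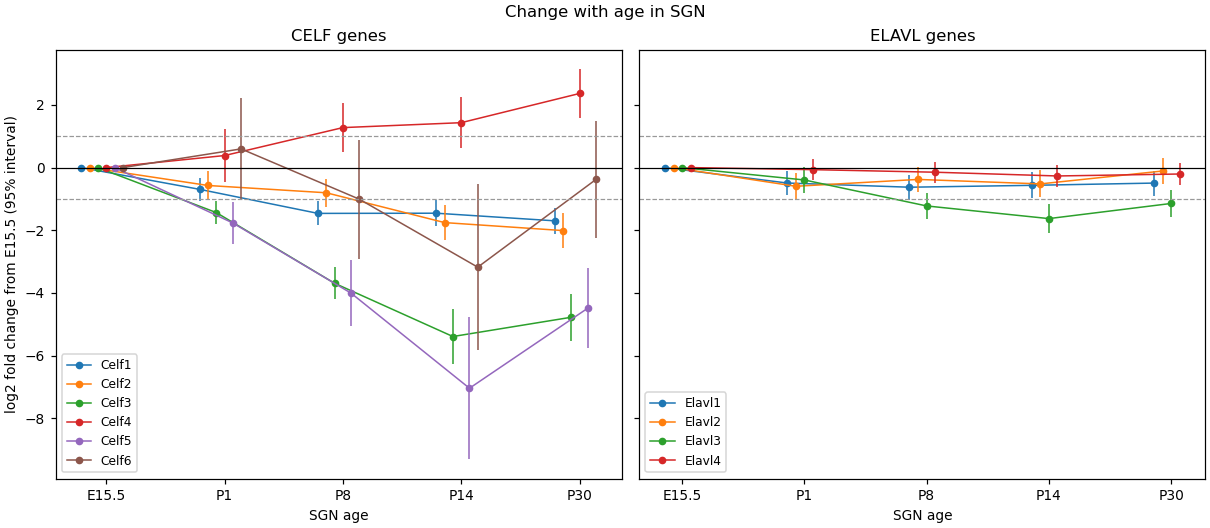
Log2 fold change of each CELF gene (left) and each ELAVL gene (right) from E15.5 to the later SGN ages, with 95% intervals from limma-voom on 15 libraries and dashed lines at a 2-fold change. *Celf3* and *Celf5* fall together to -4.78 and -4.49 at P30, *Celf4* rises to 2.37, and *Elavl1*, *Elavl2* and *Elavl4* stay within a 2-fold change of E15.5 at each later age.

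Because levels of different genes can be compared only per length, the share of each gene in the summed TPM (counts per length, scaled to a fixed sum) of its family was computed in every library. This share does not depend on how libraries are scaled, but it does depend on the deposited gene lengths, which span all exons. These are 25884 bases for *Celf2*, 8446 for *Celf1*, 8583 for *Celf4* and 5473 for *Celf3*. The lengths of the transcripts present in each cell type were not measured. At E15.5 *Celf3* made up 49.0% ± 2.11 of CELF mRNA (SD, n = 3; range 46.6% to 50.4%), *Celf5* 15.8% ± 3.55, *Celf4* 15.3% ± 2.68 and *Celf1* 14.6% ± 1.19. At P30 *Celf4* made up 89.7% ± 2.08 (range 87.9% to 92.0%), *Celf1* 5.39% ± 1.31 and *Celf3* 2.12% ± 1.22. The order of *Celf3* and *Celf4* turned over within SGNs: *Celf3* was 2.79, 3.68 and 3.29 times as abundant per length as *Celf4* in the E15.5 libraries, and *Celf4* was 25.8, 48.4 and 85.6 times as abundant as *Celf3* in the P30 libraries. At P1 the ratio of *Celf4* to *Celf3* was 0.874, 1.03 and 1.47, so the 2 genes stood at about equal levels there, and at P8 it was 14.01, 7.95 and 7.70. All P8 libraries thus held more *Celf4* than *Celf3*.

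The makeup of ELAVL mRNA moved less. *Elavl4* held 49.4% ± 5.62 of it at E15.5 and 57.3% ± 2.23 at P30 (SD, n = 3), with 43.2% to 65.7% over all SGN libraries. *Elavl3* held 28.4% ± 5.90 at E15.5 and 17.1% ± 2.11 at P30, *Elavl2* 12.9% to 18.2% and 18.3% to 21.2% (ranges), and *Elavl1* 6.28% ± 0.90 and 5.92% ± 0.32. *Elavl4* was the most abundant ELAVL mRNA per length in all 15 SGN libraries, at 1.31 to 5.17 times the level of *Elavl3*.

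**Figure D3:**
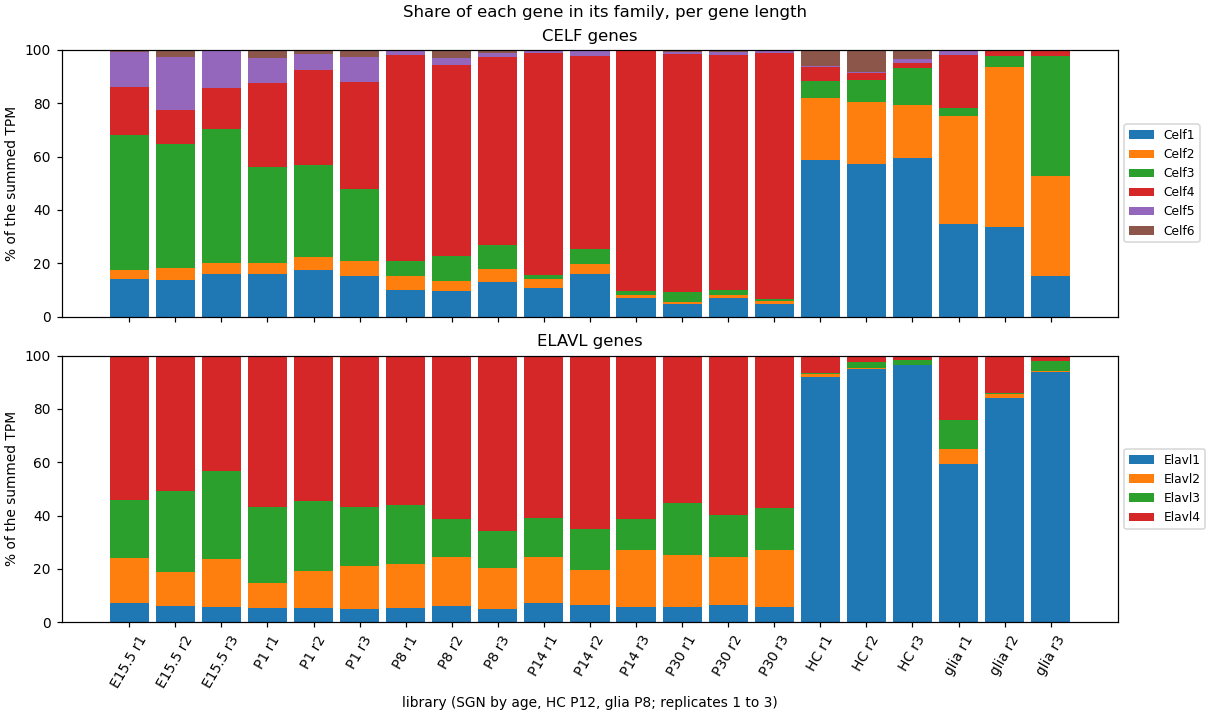
Stacked bars of the share of each gene (%) in the summed TPM of the CELF genes (top) and of the ELAVL genes (bottom), with 1 bar per library. In SGNs the CELF bars pass from 46.6% to 50.4% *Celf3* at E15.5 to 87.9% to 92.0% *Celf4* at P30, whereas *Elavl1* takes 92.0% to 96.3% of ELAVL mRNA in HCs and 59.3% to 93.7% in glial cells.

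The family sums were set beside these shares as a description. In TMM-CPM per kilobase of gene length (TMM-RPKM), the 6 CELF genes summed to 97.8 ± 8.11 in E15.5 libraries (SD, n = 3). The sum was 54.5 ± 5.93, 48.4 ± 4.07 and 53.9 ± 29.1 in the libraries of the next 3 ages and 87.5 ± 20.9 in those of P30. *Celf3* was the largest part of the sum at E15.5 and *Celf4* at P30. The 4 ELAVL genes summed to 199 ± 19.7 at E15.5, 129.8 ± 19.0 at P14 and 151 ± 6.56 at P30. The rank of the members in mean TMM-RPKM depended on the age. In E15.5 libraries *Elavl4* (98.7) stood first, followed by *Elavl3* (55.8), *Celf3* (48.0), *Elavl2* (32.1), *Celf5* (15.2), *Celf4* (15.1), *Celf1* (14.3), *Elavl1* (12.6), *Celf2* (3.92) and *Celf6* (1.17). In P30 libraries the order was *Elavl4* (86.3), *Celf4* (78.8), *Elavl2* (29.8), *Elavl3* (25.8), *Elavl1* (8.92), *Celf1* (4.56), *Celf3* (1.81), *Celf2* (1.00), *Celf5* (0.687) and *Celf6* (0.651).

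The second question was how SGNs differ from HCs, the sensory cells they contact. For these comparisons a gene was called when it differed over 4-fold with an adjusted p under 0.01 in limma-voom, fitted on all 21 libraries and 17531 genes. Against HCs, 5 of 10 members were called, all higher in the mean of the 5 SGN ages: *Celf4*, *Celf5*, *Elavl2*, *Elavl3* and *Elavl4*. Of all genes tested, 26.8% were called, 10.5% higher and 16.2% lower in SGNs. The median log2 fold change was 2.72 for the members and 0.02 for all genes. HCs were sampled at P12 only and held vestibular cells. Their libraries held 1200 cells each, against 69 to 195 for SGNs and 86 to 125 for glial cells. Strain and tamoxifen also differed between SGNs and both other cell types. Age, organ, cell number, strain, tamoxifen and cell type therefore cannot be told apart in full.

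The 3 neuronal ELAVL genes were nearly absent from HCs. *Elavl2* had 0.709, 0.428 and 0.0802 TMM-CPM in HCs, from counts of 12, 10 and 2, against 138 to 311 in SGNs. *Elavl3* had 0.354, 1.20 and 1.16, and *Elavl4* had 2.95, 1.28 and 0.762, from at most 50 counts. The lowest SGN library lay far above the highest HC library for all 3 genes. The log2 fold changes were 9.36 ± 0.98 for *Elavl2* (SE, limma-voom adjusted p = 7.00e-08), 7.97 ± 0.99 for *Elavl3* (adjusted p = 7.82e-07) and 8.41 ± 0.91 for *Elavl4* (adjusted p = 1.10e-07). Without HC replicate 3 the value of *Elavl2* was 8.52, and without HC replicate 1 it was 9.97.

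*Celf4* had 8.74, 4.28 and 3.29 TMM-CPM in HCs, below every SGN library, with a log2 fold change of 5.80 ± 0.98 (SE, limma-voom adjusted p = 3.87e-05). *Celf5* had 0.354, 0.342 and 1.84 TMM-CPM in HCs, from 6, 8 and 46 counts. It was higher in SGNs by 3.81 ± 1.16 on the log2 scale (SE, limma-voom adjusted p = 0.00874). That call was close to the threshold and was lost without any of 16 of the 18 single libraries (adjusted p over all 18 between 9.05e-04 and 0.0559), and in edgeR (adjusted p = 0.0127). Since *Celf5* and *Celf3* fall steeply with age, the SGN ages were also set against HCs singly. At E15.5 and P1 both genes were higher in SGNs. The log2 fold changes were 7.29 and 5.52 for *Celf5* (limma-voom adjusted p = 3.17e-05 and 6.47e-04). For *Celf3* they were 4.69 and 3.26 (adjusted p = 4.55e-07 and 3.89e-05). At P8, SGNs against HCs differed for *Celf5* by 3.27 on the log2 scale (95% interval 0.63 to 5.92, limma-voom adjusted p = 0.0411), and at P14, where 1 library had a count of 0, by 0.14 (95% interval -3.16 to 3.43, adjusted p = 0.955). At P30 *Celf5* was at 2.83 over HCs (95% interval 0.06 to 5.60, limma-voom adjusted p = 0.0864), with no overlap of libraries. For *Celf3* the later values were 0.99 (95% interval -0.24 to 2.22, adjusted p = 0.181) at P8 and -0.71 (95% interval -2.30 to 0.87, adjusted p = 0.471) at P14. At P30 *Celf3* was at -0.08 (95% interval -1.53 to 1.38, limma-voom adjusted p = 0.939). Over the mean of the 5 ages it was at 1.63 ± 0.52 (SE, limma-voom adjusted p = 0.0118).

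The broadly expressed members, and *Celf6* among the genes of the nervous system, leaned the other way or showed no called difference. *Celf1* had 95.3, 99.6 and 99.5 TMM-CPM in HCs and *Celf2* 115, 124 and 102, which were near their SGN levels at E15.5 and above those at every later age. Their log2 fold changes of the SGN mean over HCs were -0.77 ± 0.18 (SE, limma-voom adjusted p = 0.00138) and -1.18 ± 0.20 (SE, adjusted p = 3.72e-05), both under the 4-fold threshold. *Elavl1* had 81.2, 90.1 and 86.7 TMM-CPM in HCs, with a log2 fold change of 0.12 (95% interval -0.20 to 0.45, adjusted p = 0.53) whose sign turned under DESeq2 and other scalings. *Celf6* had 4.31, 6.29 and 2.57 TMM-CPM in HCs, within the range of all SGN libraries (log2 fold change -1.23 ± 0.60 SE, limma-voom adjusted p = 0.0906). At P14 alone *Celf6* had 0.385, 0.534 and 0.123 TMM-CPM, below all HC libraries, with a log2 fold change of -3.64 over HCs (limma-voom adjusted p = 0.00467) from 9, 10 and 2 counts.

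The third comparison set SGNs against the glial cells that surround them. Here 7 of 10 members were called, against 24.7% of all genes (14.3% higher and 10.4% lower in SGNs). *Celf4*, *Celf5*, *Celf6*, *Elavl2*, *Elavl3* and *Elavl4* were higher in SGNs, and *Celf2* was lower. The median log2 fold change was 4.42 for the members, or 3.74 with *Celf6* at its lower bound, and 0.22 for all genes. With sample quality weights 4 members were called: *Celf4* (adjusted p = 0.0403), *Celf5* (0.0903) and *Celf6* (0.0372) then missed the threshold in limma-voom.

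*Celf2* had 384, 583 and 313 TMM-CPM in glial cells, against 20.8 to 107 in SGNs, so all glial libraries lay above all SGN libraries. It was 8.25-fold lower in the SGN mean (log2 fold change -3.04 ± 0.17 SE, limma-voom adjusted p = 5.01e-12) and also lower at the matched age of P8 (log2 fold change -2.82, 95% interval -3.31 to -2.34, adjusted p = 1.62e-08). *Elavl1* had 197, 229 and 211 TMM-CPM in glial cells, also above every SGN library. Its log2 fold change of -1.16 ± 0.14 (SE, limma-voom adjusted p = 8.52e-07) was under 4-fold. *Celf1* had 106, 107 and 41.4 TMM-CPM in glial cells, which overlapped with SGNs (log2 fold change -0.51 ± 0.22 SE, limma-voom adjusted p = 0.0614).

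The neuronal members were highest in glial replicate 1, the library with the most counts of SGN markers. *Elavl2* had 14.7, 3.04 and 0.577 TMM-CPM in the 3 glial libraries, *Elavl3* 24.6, 0.695 and 5.87, *Elavl4* 41.5, 20.1 and 2.41, and *Celf4* 61.8, 7.55 and 6.74. All of these lay below every SGN library. The log2 fold changes of the SGN mean over glial cells were 5.86 ± 0.77 for *Elavl2* (SE, limma-voom adjusted p = 2.53e-06), 5.24 ± 0.76 for *Elavl3* (adjusted p = 9.12e-06), 4.95 ± 0.57 for *Elavl4* (adjusted p = 5.03e-07) and 3.88 ± 0.80 for *Celf4* (adjusted p = 4.28e-04). Without glial replicate 1 they were 7.22, 6.70, 6.04 and 5.23. Without glial replicate 2 *Elavl3* was at 3.91, and without glial replicate 3 *Elavl2* was at 4.78 and *Elavl4* at 3.95, with all of these calls kept. At P8 alone, SGNs exceeded glial cells by 5.80, 4.89, 4.93 and 4.07 in the same order of genes.

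*Celf5* had 4.74, 0 and 0 TMM-CPM in glial cells, with all of its 92 counts in replicate 1. The SGN mean was higher by 5.29 ± 1.29 on the log2 scale (SE, limma-voom adjusted p = 0.00187) and by 4.08 and 4.17 without replicates 2 and 3, where the call was lost (adjusted p = 0.0326 and 0.0306). Without glial replicate 1 the glial libraries are all at 0 counts, so no fold is given. edgeR gave 2.77 (adjusted p = 0.0383). *Celf6* had 0 counts in all 3 glial libraries and between 24 and 203 counts in the 6 SGN libraries of E15.5 and P1. Against a limit of 3 counts per glial library, the SGN mean of *Celf6* was at least 12.02-fold higher and the HC mean at least 18.7-fold higher (limma-voom adjusted p = 7.65e-05 and 3.48e-05). By SGN age the bound ran from 1.48-fold at P14 to 20.45-fold at P1. These bounds take counts as independent, and even numbers made up 64.3% to 75.0% of the counts from 1 to 20 in each library, so the bounds may be too high. *Celf3* had 6.03 and 8.34 TMM-CPM in glial replicates 1 and 2 and 79.3 in replicate 3, which did not follow the SGN markers. Its log2 fold change of 1.20 ± 0.51 (SE, limma-voom adjusted p = 0.0577) was not called, was 2.19 and called without glial replicate 3 (adjusted p = 0.00229), and was 0.35 without glial replicate 1. In DESeq2 the value turned to -0.12.

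**Figure D4:**
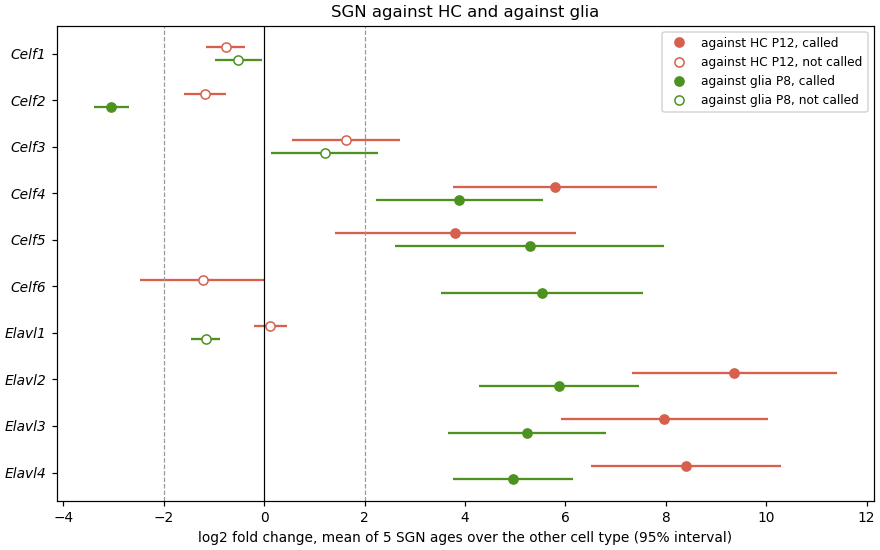
Log2 fold change of the mean of the 5 SGN ages over HCs (red) and over glial cells (green) for the 10 members, with 95% intervals from limma-voom on 21 libraries, filled points for called members and dashed lines at a 4-fold difference. *Elavl2*, *Elavl3*, *Elavl4* and *Celf4* lie at 3.88 or above in both comparisons, *Elavl1* lies at 0.12 and -1.16, and *Celf2* lies at -1.18 and -3.04.

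Between HCs and glial cells, 1 of 10 members was called, *Celf6*, which was higher in HCs, against 24.4% of all genes. With sample quality weights *Celf6* missed the threshold (limma-voom adjusted p = 0.0114) and *Elavl4* was called in its place (adjusted p = 0.00889). *Celf2* was 3.64-fold lower in HCs than in glial cells (log2 fold change -1.86 ± 0.21 SE, limma-voom adjusted p = 9.47e-07), just under the 4-fold threshold. *Elavl2* and *Elavl4* were at -3.49 and -3.45 with adjusted p-values of 0.0266 and 0.0123 in limma-voom, and they were called along with *Elavl3* by edgeR and DESeq2. DESeq2 also called *Celf4*, at -2.01 (adjusted p = 0.00328). Without glial replicate 1 the limma-voom values of *Elavl2*, *Elavl3* and *Elavl4* were -2.15, -1.27 and -2.37 (adjusted p = 0.214, 0.468 and 0.0888). This comparison and those above share their HC and glial libraries.

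The makeup of both families differed between the cell types. In HCs *Celf1* held 58.5% ± 1.09 and *Celf2* 22.1% ± 1.98 of CELF mRNA per length, and *Celf4* held 3.22% ± 1.83 (SD, n = 3). Before division by length, *Celf2* stood above *Celf1* in HCs, at a mean of 114 against 98.1 TMM-CPM. In glial cells *Celf2* held 46.0% ± 12.1 and *Celf1* between 15.2% and 34.6%, with *Celf3* between 3.02% and 44.9%. *Elavl1* held 94.4% ± 2.23 of ELAVL mRNA in HCs and 79.0% ± 17.8 in glial cells, against 4.84% to 7.30% in SGN libraries. The lowest glial share of *Elavl1*, 59.3%, was that of replicate 1. In TMM-RPKM, the CELF sum was 19.9 ± 0.71 in HCs and 35.4 ± 2.82 in glial cells, and the ELAVL sum 8.79 ± 0.33 and 26.7 ± 5.16.

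The order of the 7 groups was also read from mean TPM. *Elavl4* stood at 181 ± 42.6 TPM at P1, 140.4 ± 51.2 at E15.5, 132 ± 52.2 at P8, 129.7 ± 44.5 at P14, 106 ± 31.4 at P30, 4.64 ± 4.38 in glial cells and 1.09 ± 0.70 in HCs (SD, n = 3). Neighbors among the 5 SGN ages did not differ in limma-voom at an adjusted p of 0.05, whereas P30 and glial cells (adjusted p = 1.31e-06) and glial cells and HCs (adjusted p = 0.0123) did. *Celf4* stood at 91.9 ± 4.36 TPM at P30, 88.6 ± 73.0 at P14, 53.5 ± 21.2 at P8, 39.5 ± 18.3 at P1, 22.3 ± 10.4 at E15.5, 3.49 ± 4.44 in glial cells and 2.25 ± 1.09 in HCs. The only neighbors in that order that differed were E15.5 and glial cells (limma-voom adjusted p = 0.0159). *Celf3* stood at 69.7 ± 27.5 TPM at E15.5 and 34.2 ± 6.97 at P1, and below 7 TPM in the other 5 groups. It differed between E15.5 and P1 and between P1 and HCs, the next group (limma-voom adjusted p = 0.00274 and 3.89e-05), and not between neighbors among the last 5 groups.

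Of the 60 neighboring pairs over the 10 members, 15 differed, and 13 differed when groups were ordered by TMM-RPKM. No share over all genes is at hand for this rule, so the counts describe the order only. TPM across libraries is uneven here, because genes under 200 bases held between 9.72% and 75.1% of the TPM sum while they held 0.237% to 5.26% of the counts. *Gm23935*, of 57 bases, was the main such gene, with 8.17% to 68.1% of TPM. The order of *Elavl1* shows this: mean TPM was higher in HCs (30.0 ± 2.79) than in glial cells (23.3 ± 1.29), although it was lower in HCs in limma-voom (log2 fold change -1.29 ± 0.19 SE, adjusted p = 1.98e-05).

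For each member that reached 10 TPM in a group, the 3 genes with the highest Pearson's r of log2(TPM + 1) over the 21 libraries were found, and most of them are named here. The libraries share cell type, age and depth, so r describes a likeness and carries no p-value. *Elavl4* lay nearest to *Jakmip2* (r = 0.990), *Slitrk1* (0.990) and *Nrg1* (0.987), and *Elavl2* nearest to *Nrg1* (0.992), *Slitrk3* (0.988) and *Jakmip2* (0.988). *Elavl3* lay nearest to *Stmn4* (0.983) and *Nrg3* (0.980). *Celf4* lay nearest to *Syt11* (0.974), *Dpp6* (0.973) and *Rgs17* (0.972). *Celf5* lay nearest to *Gabra3* (0.963), *Shisa7* (0.960) and *Sox11* (0.956), and *Celf3* nearest to *Sema6a* (0.919) and *Stab1* (0.904).

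*Celf2* lay nearest to *Btg1* (0.966), *Sh3gl3* (0.965) and *Lcorl* (0.961), *Celf1* to *Chd7* (0.971), *Ftl1* (0.965) and *Ddx17* (0.961), and *Elavl1* to *Dnm2* (0.969), *Smad4* (0.964) and *Phf21a* (0.961). With TMM-RPKM in place of TPM, 15 of the 27 genes so found stayed among the nearest 3, with all 3 kept for *Celf5*, *Elavl2* and *Elavl4* and 0 kept for *Elavl1*.

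Other genes of the same pathways were counted from written lists, chosen with earlier results of these data known. Of 18 factors of AU-rich element binding and mRNA decay, 1 rose and 5 fell from E15.5 to P30. Among all genes 18.4% rose and 16.2% fell, so the list had a smaller rising and a larger falling share. *Dcp2*, the decapping enzyme, rose by 1.60 on the log2 scale, whereas *Tia1*, a translational repressor, was at -1.96 and *Xrn1*, the 5′ to 3′ exonuclease, at -1.49. Of 18 deadenylation genes, 0 rose and 6 fell, also a larger falling share than among all genes. They included *Cnot6*, a catalytic subunit of CCR4-NOT, at -2.36, *Btg1* at -2.14 and *Pan3* at -1.20. Whether these lists differ from all genes was not tested. The median log2 fold changes of these lists were -0.64 and -0.80, against -0.01 for all genes tested. *Mbnl1* and *Mbnl2*, Muscleblind-like splicing factors that often act against CELF proteins, rose by 1.64 and 1.54 (SE 0.14 and 0.17, limma-voom adjusted p = 2.60e-07 and 3.97e-06). They were the 2 of 3 listed Muscleblind-like genes that passed the filter, with a median of 1.59.

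mRNAs known to be bound by these proteins moved in both directions. Of 13 bound by neuronal ELAVL proteins, 4 rose and 5 fell from E15.5 to P30 (median -0.32). *Kcna1*, a potassium channel, rose by 3.24, *Nrn1* (neuritin) by 2.96 and *Ache* (acetylcholinesterase) by 1.17. *Marcks* was at -6.55, *Gap43*, a growth cone protein, at -4.66 and *Cdkn1a*, a cell cycle inhibitor, at -3.21. Of 10 measured mRNAs bound by CELF proteins, 3 rose and 3 fell (median -1.03). *Scn8a*, a sodium channel, rose by 3.55, *Grin1*, an NMDA receptor subunit, by 2.33 and *App* by 1.74, while *Clcn1* was at -2.63, *Fos* at -2.37 and *Mapt* at -1.46.

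Between cell types, 10.5% of all genes tested were called higher and 16.2% lower in SGNs than in HCs. Against glial cells the shares were 14.3% and 10.4%. The ELAVL-bound list had 7 genes higher and 1 lower in SGNs than in HCs (median 2.41, against 0.02 for all genes), with *Nrn1* at 10.27 and *Gap43* at 9.65, and *Bdnf*, a neurotrophin, at -5.60. Against glial cells it had 4 higher and 3 lower (median 0.99, against 0.22), with *Nrn1* at 5.05, *Ache* at 4.04, *Marcks* at -4.06 and *Kcna1* at -2.89. The CELF-bound list had 3 higher and 2 lower in SGNs than in HCs (median -0.20) and 3 higher and 1 lower than in glial cells (median 1.15), with *Grin1* at 5.21 and 3.85. The 18 decay factors did not pass the limma-voom threshold against HCs in either direction (median 0.12), and 1 was higher and 3 were lower in SGNs than in glial cells, with *Dcp2* at 2.07 and *Zfp36l1* and *Zfp36l2*, of the tristetraprolin family, at -5.00 and -4.60 (median of the list -0.79). Of the deadenylation genes, *Btg2* was lower in SGNs than in HCs (-2.75) and *Btg1* lower than in glial cells (-2.80), with medians of -0.47 and -0.96 for the list. *Mbnl2* was 3.92 higher in SGNs than in HCs (median of the list 2.69), and the median against glial cells was -0.06.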

How the data were processed

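SGNs and glial cells were picked by hand as tdTomato+ cells, and libraries were sequenced as RNA-Seq. Per the submitters' processing notes, reads were aligned to mm10 with STAR 2.4.0i and counted per gene with featureCounts on a GENCODE annotation (vM15 and M21 are named). The authors deposited these as raw counts of whole reads with a gene length, and no normalization was applied before deposit. The strand, pairing and multimapping settings are not given in the sources used here. Total counts were 10368240 to 37287489, and 3 counts correspond to 0.0805 to 0.289 CPM (counting error only).

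A gene was kept where every replicate of some group exceeded 1 CPM, and was fitted with limma-voom 3.58.1 after TMM in edgeR 4.0.16 (R 4.3.3), the filter and tools that the study's methods name, with two-sided tests and BH adjustment over all genes tested. As recomputed here, the filter kept 17531 genes over all 7 groups and 15113 over the SGN groups. Both numbers are lower than those the study's methods report for the same sets, and the reason was not tested. DESeq2 1.42.0 and edgeR's quasi-likelihood test were alternatives, as were other size factors, no filter, sample quality weights, a replicate block and leaving out single libraries. The fit was checked on simulated counts. TPM was computed from the counts and deposited lengths. Named genes were the 10 members, from each pathway list up to 3 called genes in each direction with the largest changes with age and up to 2 between cell types, and the 3 genes most like each member (highest r, among genes with a group mean over 10 CPM). Some genes that this rule selects are not reported here. The members and lists were chosen with earlier results of these data known. Promoters came from RefSeq (GRCm38.p6), and figures were drawn with matplotlib 3.10.9 (Python 3.11.15).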

Additional observations from a re-analysis of the deposited data

How the results depend on the processing

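The count of members called stayed within 1.5 times its value in most settings. Between HCs and glial cells it was 1, but 4 in edgeR's quasi-likelihood test, 5 in DESeq2 and 2 with the replicate block, and it ran from 1 to 4 when single libraries were left out, with *Elavl3* added without glial replicate 2 and *Celf2*, *Elavl2* and *Elavl4* added without glial replicate 3. From E15.5 to P1 and from P1 to P8 edgeR called 1 member in place of 2 (*Celf5* was lost), and from P8 to P14 DESeq2 and sample quality weights each called 1, *Celf3*, in place of 0. Sample quality weights left 4 of 7 members called against glial cells. The causes were not tested. Shares of all genes called are given only for the main limma-voom rule. The counts under other settings, here and above, therefore describe only which calls depend on the setting.

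The log2 fold change of *Elavl1* over HCs was 0.12, and it turned to -0.076 in DESeq2, -0.094 with RLE size factors and -0.43 with library sizes only. That of *Celf3* over glial cells turned from 1.20 to -0.12 in DESeq2. When single libraries were left out, the change of *Celf6* from E15.5 to P30 ran from -1.15 to 0.48 and that of *Elavl2* from -0.35 to 0.002, the highest values being without E15.5 replicates 2 and 1. The call of *Elavl3* from P1 to P8 was gained without P8 replicate 1 (-1.03, limma-voom adjusted p = 0.00711) and with library sizes only (-1.05, adjusted p = 0.00265). *Celf5* over HCs also missed the threshold with RLE size factors (limma-voom adjusted p = 0.0117), library sizes only (0.022) and no filter (0.0149).

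No comparison met the rule that every correlation between samples of the same replicate number exceeds 0.1 (P1 and P8 came nearest, at 0.352, 0.071 and 0.155). The main fit therefore used no pairing. Replicate 1 still shared some deviation across the postnatal ages, with correlations of 0.319 from P8 to P14 and 0.322 from P14 to P30. Its connective tissue markers summed to 621, 556, 252 and 112 CPM at P1, P8, P14 and P30. At each of these ages that was above replicates 2 and 3. The replicate block changed no other count of members. Of 70 group means of TPM, 28 moved by over 1 SD without mitochondrial genes, 6 after division by the TMM factor, 69 over genes of at least 200 bases outside the mitochondrial genome and 25 as TMM-RPKM. The last 2 scalings were chosen after seeing the data. Members under about 1 CPM, such as *Celf5* in HCs and *Celf6* in P14 SGNs, rest on few counts.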
